A study of Mus musculus with 9 samples.

Results

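Retinal progenitors made in culture from mouse embryonic stem cells, called ESC-RPCs, were compared with and without the Wnt antagonist DKK1. The comparison took, by their labels, the 3 DKK1-treated and the 3 untreated ESC-RPC arrays, which are 6 of the 9 arrays of the series; the arrays of primary retinal progenitors were not used. Both groups descended from 46C, an embryonic stem cell line made by gene targeting in E14Tg2a.IV cells, so they share one parental line. Both passed through embryoid bodies over 3 days with SB431542, an inhibitor of the ALK4, ALK5 and ALK7 receptors that blocks Nodal signalling, and then grew on Matrigel in medium free of retinoic acid. Sox1-positive neural cells, 35.8% of the culture, were sorted at day 7 and grown in N2 medium with 10 µM DAPT, which blocks Notch cleavage, and 20 ng/ml basic fibroblast growth factor. The treated group then had 1 ng/ml recombinant DKK1 for 1 day, so the controls carried every other agent. The series' design text calls the untreated cells an early, immature stage and the treated cells a later stage, and gives 3 independent biological repeats a group.

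Canonical Wnt signals act through Frizzled and Lrp5 or Lrp6 receptors, which stabilise beta-catenin so that it can activate target genes with Tcf and Lef factors. DKK1 binds the Lrp co-receptors from outside the cell and keeps them from the signal. Several direct targets, such as Axin2, Nkd1 and Lef1, are themselves parts of the pathway and serve as readouts of it. In the embryo Wnt signals give posterior and dorsal character to the neural plate, and the forebrain and eye field form where they are held low.

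Each value is the intensity of 1 probe set, a group of short probes against 1 transcript, from the MAS5 algorithm on a linear scale; a gene is shown by its brightest tested probe set that matches no other gene. Intensities were set side by side only within a gene. In bulk RNA, fewer cells of a type and less RNA per cell cannot be told apart. The label of the cells was checked against marker genes. Neural progenitor genes were well detected: Sox1 measured 2886 ± 333 in treated and 2831 ± 59.8 in untreated cells (mean ± SD, n = 3 arrays a group here and throughout), and all 19 genes of the neural progenitor list passed the intensity filter. Both groups had been sorted for Sox1, so its detection was selected for and is no separate check of the label. Of the eye field genes, Pax6 (1255 ± 210.5 against 1323 ± 193), Six3 and Lhx2 were detected. Rax, which the eye field needs, lay under the 40th percentile of the array on 5 of 6 arrays, and Six6 measured 63.2 ± 27.7 against 46.0 ± 12.9. Crx, which marks photoreceptor precursors, lay under that percentile on all 6 arrays, as did 16 of 22 photoreceptor genes. The cells therefore carried markers of neural progenitors, and several markers particular to retina were at or near background. All 29 pluripotency list genes on the array also passed the intensity filter, as Six6 did, and are described further on. That list shares Sox2 with the neural progenitor list.

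The 6 arrays resembled each other closely. Their log2 profiles correlated at 0.983 to 0.989 within groups and 0.981 to 0.990 between groups over 26464 probe sets, which are not independent replicates. The ratio of 3-prime to 5-prime signal, which tracks RNA integrity, was 1.32 to 1.37 for Actb and 0.745 to 0.792 for Gapdh. Arrays that shared a replicate number deviated from their group means together, and they were treated as pairs 1, 2 and 3. The labels do not say what the number marks. The pairing was adopted from the same values that were then tested, and these values are not separate evidence of it.

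The first question was which transcripts differed after 1 day of DKK1. In the unpaired limma fit, 0 of 26464 probe sets (0%) passed an adjusted p of 0.05; 1418 had an unadjusted p under 0.05, and the smallest adjusted p was 0.102. With the replicate number as a block, which removes what a pair shares, limma called 125 probe sets, or 0.472%: 70 higher (0.265%) and 55 lower (0.208%) in treated cells. Among the 12516 genes, each read from its brightest probe set, 60 were called with the block (0.479%), 28 higher (0.224%) and 32 lower (0.256%). A gene is said here to have risen or fallen only if it was called with the block, and adjusted p-values come from that fit. The differences were modest, with a median size of 0.36 on the log2 scale among called probe sets. These calls rest on the pairing and on the intensity trend of the empirical Bayes step, without which limma called 0 with the block and 2524 had an unadjusted p under 0.05. The block gave 41 calls without pair 2 and 472 without pair 3. Quantile normalisation with the block gave 80 higher and 41 lower calls, and a common median 49 higher and 85 lower. Of these calls, 106 and 102 were among the 125.

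Over all genes, 50.6% had a lower mean in treated cells, 19.4% were lower in 3 of 3 pairs and 18.8% were higher in 3 of 3 pairs. The groups did not overlap for 12.2% of genes, 5.3% with treated cells higher and 6.89% with treated cells lower. These shares are the background for the counts of each gene group.

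**Figure D1:**
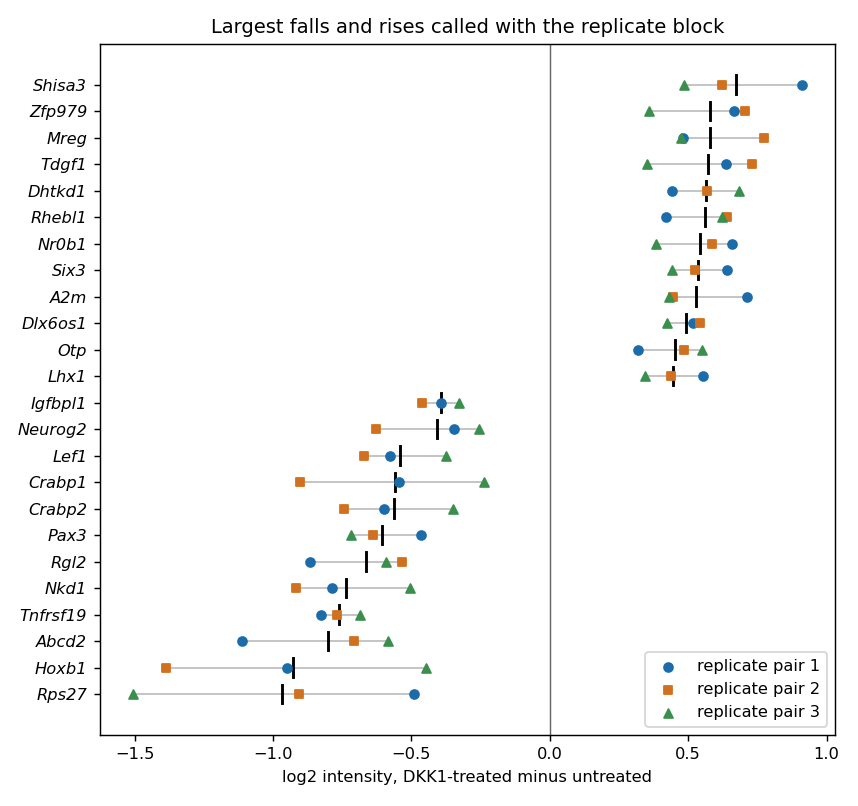
Log2 intensity in DKK1-treated minus untreated cells (horizontal axis) for the 12 largest falls and 12 largest rises among named genes called with the replicate block; points are the 3 same-number pairs and black bars their mean. All 3 points of every gene lie on one side of 0, which the naming rule required, and Rps27 spans the widest range.

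Feedback targets of the Wnt pathway were lower in treated cells. Of 12 tested, 11 had a lower mean and 7 were lower in 3 of 3 pairs, with a list median of -0.31 on the log2 scale against -0.00188 over all genes. The median was -0.29, -0.34 and -0.29 in pairs 1, 2 and 3. It ranged from -0.37 to -0.20 when 1 array was left out, with the value nearest 0 without untreated replicate 3. Tnfrsf19, Nkd1 and Lef1 fell (3 of 12 called, all lower), and 6 of 12 had groups that did not overlap.

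Tnfrsf19, a receptor of the tumour necrosis factor family that Wnt signals induce, gave 611, 626 and 681 in treated replicates 1, 2 and 3 and 1084, 1066 and 1096 in untreated replicates 1, 2 and 3. The untreated arrays lay within a narrow range, all above the treated ones. It fell by 0.76 ± 0.06 (log2, ± SE; adjusted p = 0.0037), with another probe set lower by a log2 difference of -0.58 that did not pass. Nkd1, which binds Dishevelled and restrains the pathway, gave 483, 447 and 597 in treated and 833, 843 and 847 in untreated replicates. It fell by 0.74 ± 0.09 (adjusted p = 0.0106), and all 4 of its probe sets were lower though the other 3 did not pass. Lef1, a DNA-binding partner of beta-catenin, gave 753, 776 and 702 against 1122, 1235 and 911. The groups were apart, with untreated replicate 3 nearest to the treated arrays, and Lef1 fell by 0.54 ± 0.07 (adjusted p = 0.0141). Averaged over their probe sets, Nkd1 and Lef1 no longer passed (adjusted p = 0.165 and 0.149), while Tnfrsf19 did (adjusted p = 0.0317).

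Axin2, a scaffold of the complex that degrades beta-catenin, gave 582, 654 and 589 in treated and 809, 813 and 752 in untreated replicates. The groups did not overlap, but Axin2 narrowly missed the threshold (log2 difference -0.38 ± 0.07, adjusted p = 0.0501, and 0.0343 with 1 probe set per gene). Msx3 and the brightest probe set of Hes5, given further on, also stood at 0.0501, and their values in that other setting are not printed. Znrf3, which removes Frizzled receptors from the membrane, measured 814 ± 97.2 against 969 ± 79.3, and Lgr5, an R-spondin receptor, 109.9 ± 11.8 against 142 ± 13.2; both were lower in all 3 pairs and neither passed. Sp5, a repressor that Wnt induces, measured 193 ± 23.0 against 229.6 ± 35.4. The exception was Notum, a secreted enzyme that inactivates Wnt proteins, at 197 ± 16.3 against 188 ± 43.7 (log2 difference 0.09). Rnf43, Dkk4, Cdx1 and Cdx2 were under the filter.

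**Figure D2:**
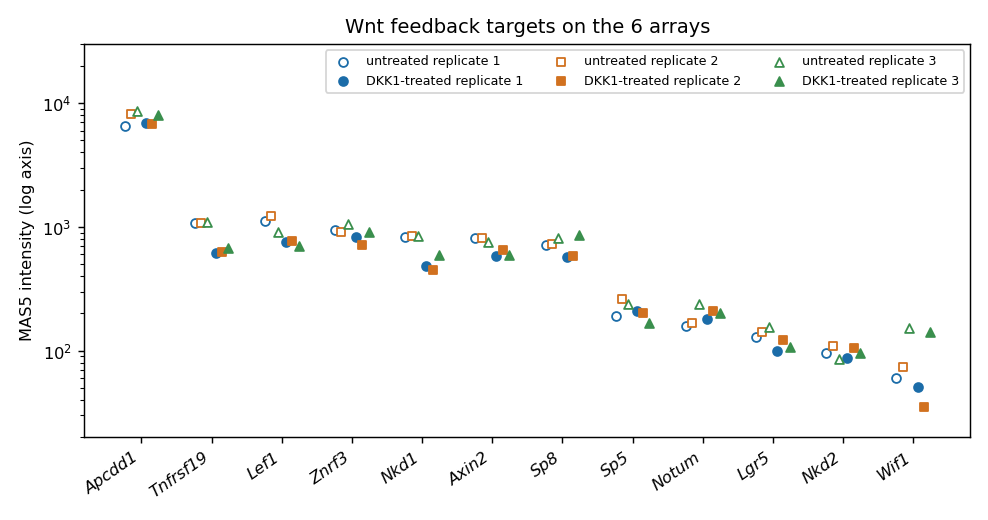
MAS5 intensity (log axis) of the 12 tested Wnt feedback targets on each array; open symbols are untreated and filled symbols DKK1-treated cells, with 1 colour and shape per replicate number. Filled symbols lie under all open ones for Tnfrsf19, Lef1, Nkd1, Axin2, Znrf3 and Lgr5, and are mixed with them for Notum.

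The promoters of the feedback targets that fell are shown because beta-catenin acts at such genes through Tcf and Lef factors, whose core site reads CTTTGA or CTTTGT. They are from RefSeq (build GRCm38.p6), run from 250 bases before to 50 after the most upstream start, and are written on the gene's strand. Tnfrsf19 has its promoter at chr14:61046806-61047105 (minus strand), Nkd1 at chr8:88527383-88527682 (plus strand) and Lef1 at chr3:131110047-131110346 (plus strand); Tnfrsf19 has 2 and Lef1 4 promoters in the table.
Tnfrsf19: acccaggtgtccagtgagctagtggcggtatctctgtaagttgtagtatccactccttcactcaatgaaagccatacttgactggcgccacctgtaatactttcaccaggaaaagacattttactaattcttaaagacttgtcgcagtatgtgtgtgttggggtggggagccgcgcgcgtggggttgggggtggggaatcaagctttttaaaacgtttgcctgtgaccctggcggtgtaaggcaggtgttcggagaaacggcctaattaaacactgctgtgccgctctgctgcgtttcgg
Nkd1: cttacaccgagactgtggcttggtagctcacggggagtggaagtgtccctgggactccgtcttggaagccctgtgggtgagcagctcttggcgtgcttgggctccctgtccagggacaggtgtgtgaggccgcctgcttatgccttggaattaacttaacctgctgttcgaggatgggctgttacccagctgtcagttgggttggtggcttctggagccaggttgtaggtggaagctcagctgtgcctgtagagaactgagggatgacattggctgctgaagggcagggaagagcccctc
Lef1: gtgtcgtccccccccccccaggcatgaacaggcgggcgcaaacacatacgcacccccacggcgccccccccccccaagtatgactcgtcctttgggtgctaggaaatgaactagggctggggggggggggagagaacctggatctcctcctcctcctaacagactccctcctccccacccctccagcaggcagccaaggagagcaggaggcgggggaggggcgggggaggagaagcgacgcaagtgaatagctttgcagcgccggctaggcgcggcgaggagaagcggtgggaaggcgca
Neither CTTTGA nor CTTTGT was found on either strand in these 300 bases (0 matches in each), so no letters are in capitals. Of 32851 mouse promoters of the same length, 31.2% held at least 1 match. No match says only that these letters are not in this window.

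No other Wnt pathway list held a call. None of the 27 ligands and receptors, 26 transduction components and 9 antagonists was called, and their medians were 0.045, -0.002 and -0.03. The antagonist median was 0.127, -0.262 and 0.0791 by pair, and ranged from -0.18 without DKK1-treated replicate 3 to 0.0884 without DKK1-treated replicate 2. Receptors differed in direction. Fzd5 measured 256 ± 50.3 against 205 ± 0.231, higher in all 3 pairs (adjusted p = 0.364), while Fzd6 measured 294.8 ± 72.3 against 369 ± 65.6 and Fzd4 62.5 ± 5.55 against 78.8 ± 2.33, both lower in all 3 pairs (adjusted p = 0.16 and 0.561). Fzd10 measured 256 ± 85.7 against 326 ± 41.3, lower in 2 of 3 pairs (adjusted p = 0.261). Rspo2, a secreted enhancer of Wnt signals, measured 544 ± 142 against 436 ± 93.9, higher in all 3 pairs (adjusted p = 0.127). Tcf7l1, a Tcf factor that mostly represses targets, measured 1234 ± 58.7 against 1035 ± 54.1 (log2 difference 0.25 ± 0.06, adjusted p = 0.0838). The transcript of Dkk1 itself, which does not report the added protein, measured 128 ± 23.9 against 134 ± 16.9 (adjusted p = 0.878).

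Most tested genes of the hindbrain, midbrain-hindbrain boundary and dorsal neural tube had lower means in treated cells. Of 24 Hox and hindbrain genes on the array only 11 were tested, and 6 lay under the 40th percentile on all 6 arrays. Of the 11 tested, 10 had a lower mean and 6 were lower in 3 of 3 pairs (median -0.41). Of 12 boundary genes 11 were lower and 5 in all pairs (median -0.26). Of 18 dorsal and neural crest genes, 14 were lower and 8 in all pairs (median -0.16). With 1 array left out these medians ranged from -0.58 to -0.27, from -0.32 to -0.16 and from -0.25 to -0.12. The values nearest 0 came without untreated replicate 3, DKK1-treated replicate 2 and untreated replicate 1. Hoxb1, Irx3, Pax3 and Crabp1 fell, which is 1, 1 and 2 called in the 3 lists.

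Hoxb1, which marks a segment of the hindbrain, gave 181, 156 and 324 in treated and 349.6, 409 and 442 in untreated replicates. Treated replicate 3 came close to the lowest untreated array without reaching it, and Hoxb1 fell by 0.93 ± 0.16 (adjusted p = 0.0402). Hoxb2 measured 673 ± 243 against 899.6 ± 212, lower in 3 of 3 pairs, and narrowly missed the threshold (adjusted p = 0.0563). Both replicate 3 arrays were the brightest for Hoxb1, Hoxb2 and Hoxa2 in their groups. Hoxb9 was the 1 gene of the list with a higher mean (68.0 ± 45.4 against 48.2 ± 19.8). Irx3, a homeobox gene of the caudal neural plate, gave 2867, 2722 and 3195 against 3857, 3479 and 4077. It fell by 0.38 ± 0.04 (adjusted p = 0.00894). Gbx2, which sets the hindbrain side of the boundary, measured 219.6 ± 56.0 against 319 ± 67.9 (adjusted p = 0.0696). The boundary genes En2 and En1 differed little, at 1600 ± 125 against 1639 ± 163 and 102 ± 25.2 against 105 ± 23.3. Neither was lower in all 3 pairs. Fgf17 went the other way, at 65.3 ± 13.0 against 50.0 ± 22.9, higher in all 3 pairs without passing (adjusted p = 0.499).

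Pax3, a paired-box gene of the dorsal neural tube and neural crest, gave 853, 642 and 939.7 in treated and 1179, 998 and 1545 in untreated replicates. Each treated array lay under all untreated ones, and Pax3 fell by 0.61 ± 0.07 (adjusted p = 0.00894). All 3 of its probe sets were called, at log2 differences of -0.54 to -0.62. Msx3, another dorsal gene, measured 116 ± 46.1 against 215 ± 38.8, a larger log2 difference of -0.96 ± 0.17 that narrowly missed the threshold (adjusted p = 0.0501). Pax7 measured 127 ± 23.5 against 194 ± 77.2 and Msx2 61.1 ± 15.2 against 103 ± 28.6; neither passed. Zic1 did not follow, at 8343 ± 551 against 8118 ± 312. Sox9, also in this list, went the other way, at 1493 ± 109 against 1291 ± 105. It was higher in all 3 pairs with groups apart and did not pass (adjusted p = 0.136).

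Genes of retinoic acid handling included 2 falls among 14 tested (10 with a lower mean, 5 in all pairs, median -0.11, and -0.0129 without DKK1-treated replicate 2). The cellular binding proteins Crabp1 and Crabp2, both known retinoic acid carriers, were strongly detected. Crabp2 gave 4065, 3613 and 5768 against 6159.7, 6049.7 and 7355, and fell by 0.56 ± 0.06 (adjusted p = 0.00894). Crabp1, also in the dorsal list, gave 7215, 6939 and 11118 against 10519, 12966 and 13102, and fell by 0.56 ± 0.09 (adjusted p = 0.0361). Its treated replicate 3 lay above untreated replicate 1, so these groups overlapped. The degrading and synthetic enzymes and the receptors tested were not called. Of 15 Hedgehog pathway genes, Gli3, which mostly acts as a repressor, and Gas1, a co-receptor, fell. Gli3 measured 1869 ± 215 against 2408 ± 154 (adjusted p = 0.0161), and all 3 of its probe sets were lower, but their mean did not pass (adjusted p = 0.0699). Gas1 measured 3023 ± 145 against 3665 ± 373 (adjusted p = 0.0384), but another of its 3 probe sets pointed up and the mean over them reversed to a log2 difference of 0.16. Smo and the rest of that list were not called (list median -0.0228).

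Six3, Otp, Lhx1, Dlx6os1 and Gad1 rose. They were not fixed or tested as a group: Six3 is in the forebrain list (1 of 13 called), Lhx1 and Gad1 are in that of ganglion, amacrine and horizontal cells, and Otp and Dlx6os1 are in none. Other neural genes fell, among them Lhx9, a LIM homeobox gene of the developing brain (2201 ± 514 against 2749 ± 686, log2 difference -0.32 ± 0.05, adjusted p = 0.0378), and Neurog2 and Nhlh2, given further on. Six3, a repressor of Wnt1 and a gene of the forebrain and eye field, gave 1449, 2212 and 940.3 in treated and 931, 1538 and 693 in untreated replicates. The groups overlapped widely, since pair 2 was high and pair 3 low in both, yet each treated array exceeded its partner. Six3 rose by 0.53 ± 0.06 (adjusted p = 0.00894). Gad1, which makes the transmitter GABA, gave 4637, 6196 and 3821 against 3486, 4563 and 2998. It rose by 0.40 ± 0.04 (adjusted p = 0.00738).

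Lhx1, a LIM homeobox gene of several neuron types and of early mesendoderm, gave 1682, 2165 and 1595 against 1146, 1599 and 1257, and rose by 0.44 ± 0.06 (adjusted p = 0.0125). Its other probe set was also called. Otp, a homeobox gene of the developing hypothalamus, gave 552, 446 and 902 against 443, 319 and 617, and rose by 0.45 ± 0.08 (adjusted p = 0.049). Dlx6os1, a noncoding RNA from the Dlx5 and Dlx6 locus of forebrain interneurons, gave 939, 769 and 567 against 657, 528 and 423. It rose by 0.49 ± 0.07 (adjusted p = 0.0215). In each of these genes the groups overlapped and the calls rest on the differences within pairs.

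As a list, 9 of 13 forebrain genes had a higher mean and 6 were higher in all pairs (median 0.11; 0.00243, 0.105 and 0.0632 by pair). The median turned to -0.02 without DKK1-treated replicate 2 and lay at 0 on rounding without untreated replicate 3. Leaving out 1 array keeps its partner in the other group, so differences between pairs enter such medians. Lhx8, a gene of ventral forebrain neurons, had the largest log2 difference of the list at 1.15 ± 0.24 (136 ± 32.4 against 60.5 ± 9.87) and did not pass (adjusted p = 0.0759). Fezf2 measured 87.9 ± 29.9 against 139.7 ± 22.3 and Lhx2 1114 ± 87.5 against 1379 ± 281, both lower in 3 of 3 pairs and not called. The eye field and retinal progenitor list did not move one way: 7 of 18 were higher and 11 lower (median -0.03), with Six3 called higher and Fgf15 lower. Fgf15, a growth factor made by retinal and other neural progenitors, measured 3180.4 ± 270.2 against 3778 ± 254 (adjusted p = 0.0377).

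**Figure D3:**
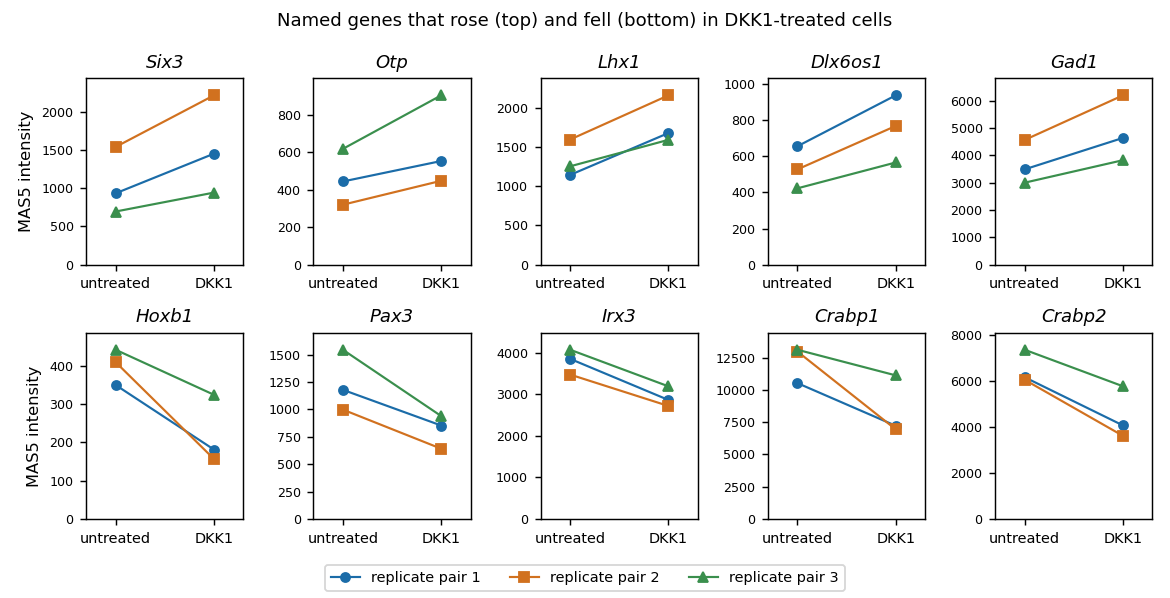
MAS5 intensity (linear axis from 0) of 5 named genes that rose (top) and 5 that fell (bottom) in untreated and DKK1-treated cells; each line joins arrays of 1 replicate number. Every line rises in the top row and falls in the bottom row, and the levels of Six3 and Gad1 differ more between pairs than within them.

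Pluripotency genes were slightly higher in treated cells. Of 29 tested, 23 had a higher mean and 17 were higher in 3 of 3 pairs, with 10 whose groups did not overlap (median 0.15; 0.20, 0.24 and 0.11 by pair). The summed intensity of the list was 49062 to 52403 in treated and 44459 to 50739 in untreated arrays. The median ranged from 0.0859 without untreated replicate 2 to 0.227 without DKK1-treated replicate 2. Tdgf1, Nr0b1 and Zfp42 rose.

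Tdgf1, the Nodal co-receptor Cripto, gave 1106, 894 and 812 in treated and 711, 538 and 637 in untreated replicates, with every treated array above the untreated ones. It rose by 0.57 ± 0.08 (adjusted p = 0.0206). Nr0b1, an orphan nuclear receptor of stem cells, gave 693, 621 and 700.2 against 439, 414 and 536, and rose by 0.54 ± 0.08 (adjusted p = 0.025). Zfp42, known as Rex1, gave 4179, 3389 and 3942 against 2962, 2360.5 and 3385. It rose by 0.41 ± 0.06 (adjusted p = 0.0188), with DKK1-treated replicate 2 only just above untreated replicate 3. The core factors differed little: Pou5f1 measured 1794 ± 283 against 1678 ± 266, Nanog 2331 ± 213 against 2103 ± 299 and Sox2 10910.0 ± 278 against 10363 ± 326. Utf1 (669.9 ± 47.2 against 507 ± 6.71, adjusted p = 0.0583), Dppa2 (633 ± 40.2 against 461 ± 99.6) and Fgf4 (236 ± 6.43 against 152 ± 32.4) were higher in all pairs and did not pass. Lin28a went the other way, at 688 ± 79.3 against 761 ± 104. Among endoderm and mesoderm factors 8 of 11 were higher, with Lhx1 the only call and Gata4 and Mesp1 near background; of 14 Nodal pathway genes 9 were higher, with Tdgf1 the only call.

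Of 19 neural progenitor genes 14 had a lower mean, 8 in all pairs, and none was called (median -0.0792); Sox2 and Sox1 were among the 5 higher. Genes of neuron formation that fell were Neurog2, Nhlh2 and Hes6, 3 of 25 in the proneural list (16 lower, 9 of them in all pairs; median -0.0738, and -0.0167 without untreated replicate 2). Neurog2, a proneural bHLH factor, gave 1327, 1126 and 1513 in treated and 1689, 1739 and 1804 in untreated replicates, which did not overlap. It fell by 0.41 ± 0.07 (adjusted p = 0.0408). Nhlh2, a bHLH factor of young neurons, gave 1807, 1596 and 3087 against 2388, 2228 and 3584, high in both replicate 3 arrays, and fell by 0.37 ± 0.06 (adjusted p = 0.025). Hes6, which promotes neurogenesis, measured 3899.6 ± 129 against 4661 ± 154 and fell by 0.26 ± 0.04 (adjusted p = 0.0227). That probe set is marked as cross-hybridising, and the mean over the probe sets of Hes6 did not pass (adjusted p = 0.0799). Insm1, in the same list, measured 3995 ± 513 against 3497 ± 481, higher in all pairs (adjusted p = 0.0642). Among Notch pathway genes 18 of 24 were lower (median -0.0681), with Hes6 the only call. Hes5, a direct Notch target, measured 5389 ± 691 against 6233 ± 457 on its brightest probe set (adjusted p = 0.0501), while its other probe set was called at -0.31 (adjusted p = 0.0382). The Notch ligand Dll1 measured 1697 ± 73.7 against 1997 ± 67.6 (adjusted p = 0.0895). Both groups had been grown with DAPT.

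Transmitter genes were not called apart from Gad1. The GABA transporter Slc32a1 measured 479.9 ± 164 against 358 ± 61.3 and was higher in all pairs, while the glutamate transporter Slc17a6 measured 1174 ± 378 against 1422 ± 378 and was lower in all pairs; neither passed (adjusted p = 0.183 and 0.0717). Of 20 ganglion, amacrine and horizontal cell genes 13 were lower, and the calls, Gad1 and Lhx1, were both higher. Pou4f1, a factor of ganglion and other sensory neurons, measured 283 ± 48.3 against 443 ± 147 (adjusted p = 0.108). Of 18 synapse and channel genes 15 were higher (median 0.08), but by pair the median was 0.06, 0.31 and -0.08, and it turned to -0.06 without DKK1-treated replicate 2. Glia genes were higher for 21 of 27 and in all pairs for 15 (median 0.12, from 0.0417 without untreated replicate 3 to 0.209 without DKK1-treated replicate 3). Among them Clu, a secreted chaperone, measured 1512 ± 9.52 against 1311 ± 74.8, higher on 4 of 4 probe sets and called on 1 that is not the brightest. Aldoc and Ndrg2 were higher in all pairs without passing. Abcd2, also in that list, fell.

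**Figure D4:**
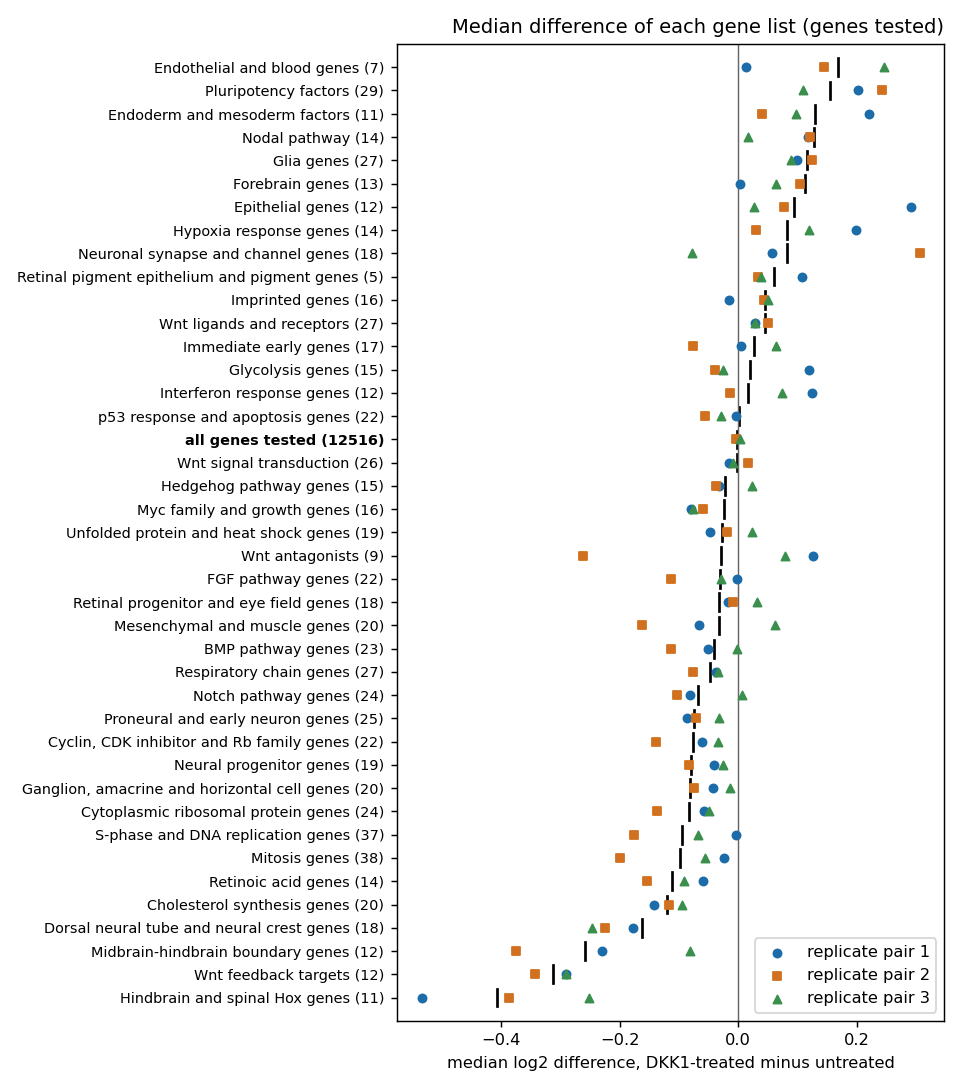
Median log2 difference (DKK1-treated minus untreated) of each gene list with at least 5 tested genes, the number tested in brackets; points are the 3 same-number pairs and black bars the median of mean differences. Hox, Wnt feedback, boundary and dorsal genes are the lowest lists, with all 3 pairs under 0, and all genes tested sit at 0.

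Most cell division genes had slightly lower means in treated cells, unevenly across pairs. Of 37 DNA replication genes 32 were lower and 19 in all pairs (median -0.0941), and of 38 mitosis genes 33 and 15 (median -0.0987). None was called. The replication median was -0.00437, -0.175 and -0.0675 and the mitosis median -0.0238, -0.2 and -0.0558 in pairs 1, 2 and 3. Without DKK1-treated replicate 2 they turned to 0.00129 and 0.00529. Mki67, the proliferation antigen, measured 3885 ± 582 against 4116 ± 343, Ccnd1 3712 ± 698 against 3979.9 ± 555 and Myc 561 ± 10.0 against 657 ± 71.7, the last with groups apart (adjusted p = 0.291). The inhibitor Cdkn1c measured 2037 ± 58.6 against 2323 ± 103 and Cdkn1b 3178 ± 267 against 2827 ± 357; neither passed. The list of cyclins, their inhibitors and the Rb family had 16 of 22 lower (median -0.0769), with the median at 0.0223 without DKK1-treated replicate 2 and -0.152 without DKK1-treated replicate 3.

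Cholesterol synthesis genes were lower without exception: 20 of 20 had a lower mean, 17 in all pairs and 9 with groups apart (median -0.12, and -0.111 after quantile normalisation). None was called. Sqle, which oxidises squalene, gave 4808, 5079 and 4847 in treated and 5460.4, 6029 and 5409 in untreated replicates. The groups did not overlap and the log2 difference was -0.20 ± 0.04 (adjusted p = 0.0504). Hmgcs1, an early enzyme of the pathway, measured 17412 ± 1149 against 19181 ± 1270.4 (adjusted p = 0.0759). Without 1 array the list median stayed between -0.135 and -0.102.

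Ribosomal protein genes were lower for 22 of 24 (17 in all pairs, median -0.0829) and respiratory chain genes for 24 of 27 (16 in all pairs, median -0.0478). After quantile normalisation these medians were -0.0163 and -0.0315. Such genes are among the brightest, and direction went with intensity over all genes. With genes ranked by intensity into 10 equal bins, in the brightest bin 64.6% had a lower mean and 38.9% were lower in all pairs, against 47.0% and 11.3% in the dimmest bin. The median of the brightest bin was -0.0295, and -0.0108 after quantile normalisation. The part of intensity in the shifts of bright lists, cholesterol and cell division genes included, was not tested. Within this list of 24 genes the only call was Rps27, at 124, 229.7 and 148 in treated and 175, 431 and 421 in untreated replicates, whose groups overlapped. It fell by 0.97 ± 0.17 (adjusted p = 0.0482), against a log2 difference of -0.13 ± 0.03 for Rpl19, and is measured by 1 probe set. That probe set lay far under the brightest bin, which starts at 3590, although genes of this list are among the brightest. How well it reports Rps27 was not tested. Outside the list Rpl6 fell, at 19194 ± 334 against 21548 ± 1185 (log2 difference -0.17 ± 0.03, adjusted p = 0.0473), and Rpl41 and Rps28 were each called lower on a probe set that is not their brightest and is marked as cross-hybridising (log2 differences -0.19 and -0.16).

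**Figure D5:**
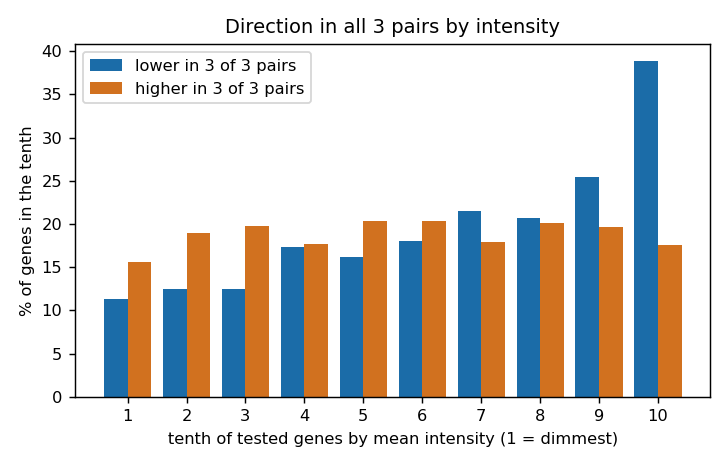
Share of tested genes (%) that were lower (blue) or higher (orange) in all 3 pairs in DKK1-treated cells, in 10 bins of mean intensity from the dimmest (1) to the brightest (10). The lower share grows from 11.3% to 38.9% while the higher share stays between 15.6% and 20.4%.

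The remaining genes with the largest calls belong to no pathway of the lists, except Abcd2 (glia) and Mreg (pigment). Abcd2, a peroxisomal transporter of very long chain fatty acids, gave 236, 303 and 269 in treated and 509.6, 495 and 403 in untreated replicates and fell by 0.80 ± 0.11 (adjusted p = 0.0206); the mean over its 3 probe sets did not pass (adjusted p = 0.125). Rgl2, an exchange factor for Ral, gave 544, 665 and 627 against 991, 964 and 944. It fell by 0.66 ± 0.08 (adjusted p = 0.0106), with the groups far apart. Igfbpl1, a secreted protein of the insulin-like growth factor binding family, measured 2614 ± 152 against 3442 ± 317 and fell by 0.39 ± 0.04 (adjusted p = 0.00894).

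Shisa3 had the largest rise by the naming rule. It encodes a membrane protein whose family holds back Wnt and fibroblast growth factor receptors during their maturation. It gave 509.8, 782 and 728 in treated and 271, 508 and 519.8 in untreated replicates, and rose by 0.67 ± 0.09 (adjusted p = 0.0188). Treated replicate 1 lay under untreated replicate 3, so the groups overlapped. A second probe set was higher by 0.56 and did not pass (adjusted p = 0.0696). Mreg, a regulator of pigment granule transport, measured 1182 ± 202 against 799 ± 189 (adjusted p = 0.0125). A2m, a secreted protease inhibitor, measured 1735 ± 305 against 1204 ± 236 (adjusted p = 0.0125), and Dhtkd1, a mitochondrial dehydrogenase, 403 ± 17.3 against 273 ± 13.4 (adjusted p = 0.0434). Rhebl1, a small GTPase that can activate mTOR, measured 936 ± 48.6 against 638 ± 89.4 (adjusted p = 0.0125), and the zinc finger gene Zfp979 481 ± 71.1 against 328 ± 89.3 (adjusted p = 0.0408). Rhebl1 was called on a probe set marked as cross-hybridising, and its other probe set had a log2 difference of -0.07. The mean of the 2 did not pass (adjusted p = 0.131).

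Of the genes called here on their brightest probe set, 32 were followed with pairs left out. Lhx9, Rpl6 and Tal1 were not followed. Of the 32, 28 were also called without pair 1, 12 without pair 2 and 30 without pair 3. The 12 called whichever pair was left out were Tnfrsf19, Nkd1, Pax3, Irx3, Crabp1, Crabp2, Rgl2 and Igfbpl1, which fell, and Six3, Gad1, A2m and Mreg, which rose. With the probe sets of each gene averaged, 24 of the 32 were called; Nkd1, Lef1, Gli3, Gas1, Hes6, Abcd2, Rhebl1 and Rps27 (adjusted p = 0.053) were not.

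Calls could also be set against other probe sets of the same gene, a check chosen after the values were seen. Of 76 called probe sets whose gene had others, the median of the others had the same sign in 56, but in only 22 of 76 was it also at least 0.5 times as large. Among calls that were higher on probe sets marked as cross-hybridising (suffix x) the sign was shared in 12 of 21 and the size reached in 3. Among higher calls on probe sets without the suffix x, some of which carry the suffix s or a, these counts were 19 and 7 of 28. Among lower calls without the suffix x they were 19 and 11 of 21. The suffix x is carried by 6.21% of tested probe sets, by 32.9% of those called higher and by 21.8% of those called lower. Becn1 had the largest rise of all on 1 such probe set (log2 difference 1.77), while its 4 others ranged from -0.26 to 0.06. Cnn3 was called at 0.87 on 1 probe set of 6, with the others between -0.15 and -0.01, and Kif5b at 1.04 on 1 of 6, with the others between -0.03 and 0.11. Such genes are given by their probe sets and not as rises of the gene.

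In the fixed lists of other cell types no gene was called outside those named. Tal1, a factor of blood, endothelium and some GABAergic neurons that is in none of the lists, was called higher on its 1 probe set (2569 ± 645 against 2168 ± 621, log2 difference 0.25 ± 0.05, adjusted p = 0.0482). Mesenchymal genes were mixed (9 of 20 higher, median -0.033), 7 of 12 epithelial genes were higher, with Krt8 at 504 ± 191 against 401 ± 150.2, and 4 of 7 endothelial and blood genes were higher, with summed intensities of 765 to 884 in treated and 728 to 882 in untreated arrays. Of 15 microglia genes 9 lay under the 40th percentile on all 6 arrays, with summed intensities of 378 to 459 in treated and 387 to 444 in untreated arrays. Of 14 hypoxia genes 11 were higher and 4 had groups apart (median 0.0831), among them Ndrg1 at 349.6 ± 25.7 against 269 ± 9.91 (adjusted p = 0.127). The immediate early, FGF, BMP, p53, Myc, glycolysis, heat shock, interferon and imprinted gene lists had medians between -0.0413 and 0.0455, with Fgf15 the only call on brightest probe sets. In the imprinted list the noncoding RNA Meg3 was higher on 11 of 11 probe sets, 1 of them called, and measured 6284 ± 979 against 5237 ± 746 (adjusted p = 0.0803).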

How the data were processed

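Biotin-labelled cRNA of 6 ESC-RPC samples was hybridised to Affymetrix 3-prime arrays. The deposited values are intensities on a linear scale, which the authors made with MAS5 per the submitters' processing notes; settings and genome build are not given in the sources used here. On each array the mean after trimming was 500, so arrays had been scaled before deposit, and no value lay below 1. Precision is limited by the number of arrays: log2 differences had a median SE of 0.130 unpaired and 0.101 with the block.

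Log2 was taken without further normalisation. The 64 control probe sets were left out, and a probe set was tested if its mean over the 6 arrays exceeded the mean of the arrays' 40th percentiles (26464 of 45037). Of 45037, 932 matched several genes and 9160 none in the platform annotation of 2016. Two-sided moderated tests in limma 3.58.1 (R 4.3.3) used an intensity trend and Benjamini-Hochberg adjustment over all tested probe sets, with calls at an adjusted p under 0.05. The planned main fit had no block. Deviations from group means correlated at 0.162, 0.233 and 0.371 for same-number arrays and at -0.285 to 0.0789 for different numbers, across probe sets. Centring each group on its own mean ties these values together, since positive same-number values push the different-number ones down. The contrast is therefore not separate evidence of pairing. Since each same-number correlation was above 0.1, arrays of one number were treated as a pair. The pairing comes from the values, not from the labels.

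A rule named genes. Among called genes with a proper symbol it took the 12 largest rises and 12 largest falls that moved one way in all 3 pairs. It added up to 4 members a list with the smallest p, and a fixed set of 17. Not all are printed. Other genes were printed by choice, outside the rule. Among them are Lhx9, Tal1, Rpl6, Znrf3, Lgr5, Notum, Fzd4, Pax7, Zic1, Hoxb9, En1, En2, Fgf17, Pou5f1, Nanog, Dppa2, Lin28a, Becn1, Cnn3 and Kif5b. The comparison, members and gene lists were chosen with earlier results of these data known. The fits were tested on simulated data with known changes, where the share of false calls exceeded the threshold of 0.05 in both fits.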

Additional observations from a re-analysis of the deposited data

How the results depend on the processing

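Without the replicate block, limma called 0 probe sets in the main setting (1418 at an unadjusted p under 0.05) and 0 under each planned filter, normalisation, pseudocount, gene unit and trend setting. Leaving out 1 array without the block gave 0 to 3 calls, the 3 without untreated replicate 3. The pairing comes from the values, not from the labels. With the replicate block limma called 125 in the main setting, 148 with a stricter filter (60th percentile), 121 after quantile normalisation, 134 with a common median, 143 on log2 of the value plus 32, 118 with 1 probe set per gene and 48 when probe sets were averaged per gene. It called 2 with no filter and 0 with no intensity trend. Leaving out pair 1, 2 or 3 gave 121, 41 and 472 calls with the block, of which 75, 32 and 118 were among the 125. The cause of these changes was not tested.

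Of 85 genes followed through the settings, 32 passed with the block. Reversals outside the leave-one-out fits arose only when probe sets were averaged per gene, where Gas1 turned to 0.161 and Pax6 to 0.180, with and without the block. With 1 array or pair left out, small differences crossed 0: Ccnd1 ranged from -0.26 to 0.0020, Dkk1 from -0.18 to 0.085 (to 0.0244 with the block), Hoxb9 from -0.13 to 0.72 (to 0.73 with the block), Mki67 from -0.20 to 0.019 (to 0.071 with the block) and Notum from -0.017 (-0.022 with the block) to 0.28. Pax6 ranged from -0.21 to 0.021, Pou5f1 from -0.034 to 0.20, Sox1 from -0.034 to 0.12 (-0.024 and -0.018 in pairs left out with the block) and Zic1 from -0.011 to 0.084. None of these 9 was called. Of list medians, 76 of 240 moved by more than the SD over pairs when 1 array was left out, and 19 of 280 under other settings. With 1 array left out, the median took the other sign at least once in 19 of 40 lists. These fits had no block and kept the partner of the array left out, so differences between pairs entered them. How much they did so was not tested. The smallest difference called with the block was 0.14 on the log2 scale.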
